A study of Arabidopsis thaliana with 8 samples.

Results

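The chromosome ends described here are the windows of the count table that lie wholly within the first or last 100 kb of chromosomes 1 to 5 of Arabidopsis thaliana, with the last window of a chromosome taken as its end. They were chosen by position alone and number 1995 of the 238296 windows on these chromosomes, 199 in each left end and 200 in each right end. An end is written by its chromosome and side, so that 2L is the left end of chromosome 2. The last windows inside the 100-kb border had log2 ratios of MBD7 ChIP to its input between -0.78 and 0.09, and the first windows outside it between -0.62 and 0.36.

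A plant chromosome ends in a telomere, an array of short repeats, beside which lies subtelomeric DNA that in Arabidopsis is rich in genes. The left ends of chromosomes 2 and 4 differ from the others, since they carry the nucleolus organizers, long arrays of ribosomal RNA (rRNA) genes that the genome sequence holds only in small part. MBD7 belongs to the family of plant proteins with a methyl-CpG-binding domain. It binds DNA with methylated CG sites and is known to act with the histone acetyltransferase IDM1 and its partners in the removal of DNA methylation.

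Chromatin was taken from whole seedlings 14 days old, grown at 23 °C with 16 h of light per day, in 2 genotypes. The WT plants carry a 35S-SUC2 transgene, and the MBD7 line carries proMBD7::gMBD7:4xMYC, a genomic MBD7 construct with 4 MYC tags driven by the MBD7 promoter. Whether the MBD7 line also carries 35S-SUC2 is not given in the sources used here, and its libraries are named for 1 line. Each genotype gave 2 input libraries, made from fixed and sheared chromatin without precipitation, and 2 libraries precipitated with a mouse monoclonal antibody to c-Myc (ChIP). The WT plants have no tagged protein, so WT ChIP is the background of the precipitation. The labels name Invitrogen as the source of the antibody for WT ChIP and Millipore for MBD7 ChIP, while the protocol given with every library names Invitrogen alone. If the sample labels hold, antibody source and genotype cannot be told apart in any comparison of the ChIP libraries, and which record is right was not tested. The tissue is a mixture of cell types, and more cells with bound protein cannot be told apart from more protein per cell. The labels do not state whether the 2 libraries of a group are from different cultures. The p-values therefore rest on library-to-library spread that may be technical only.

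The 8 libraries ranged from 4971029 counts in WT ChIP to 31459707 in WT input. The ends make up 0.839% of the length of the chromosomes and held 0.614% to 0.837% of the counts of a library. 2L alone held 0.298% to 0.712%, and the other 9 ends together 0.106% to 0.438%. WT ChIP was the shallowest group, with a median of 4 and 3 counts per window against 44 to 63 in the inputs. The log2 cpm of its replicates correlated over the end windows, which share their library and depth, with r = 0.856, against 0.972 to 0.983 in the other groups. Of the 1995 end windows 1978 passed the filter on low counts and were tested.

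MBD7 ChIP was first compared with MBD7 input over each whole end, since this asks where the tagged protein is enriched. The ends did not behave as 1 class: 2L, 4L, 2R and 5L were higher in MBD7 ChIP, 1R, 3R and 5R were lower, and 1L, 3L and 4R did not pass the test. Across all 1193 bins of 100 kb, 37.8% were higher and 47.6% lower, beside 4 higher and 3 lower among the 10 ends. All tests of this kind used the quasi-likelihood test of edgeR, with p-values adjusted over every bin of the genome by the method of Benjamini and Hochberg, and a call is an adjusted p under 0.05.

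2L, which adjoins the nucleolus organizer of chromosome 2, showed the largest value. It had 2001 and 2080 cpm (counts over the TMM-scaled library size) in the WT input libraries, 9645 and 8088 in WT ChIP, 1413 and 1486 in MBD7 input and 14726 and 13307 in MBD7 ChIP. Both MBD7 ChIP libraries lay above every other library, and both WT ChIP libraries above all inputs. The log2 ratio of ChIP to input was 3.27 ± 0.14 (SE; 9.67-fold, adjusted p = 2.6e-09) in the MBD7 line and 2.12 ± 0.13 (adjusted p = 3.2e-07) in WT, where no tagged protein is present.

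4L, which adjoins the other nucleolus organizer, came next. It had 214 and 209.5 cpm in WT input, 279.5 and 234 in WT ChIP, 190 and 186 in MBD7 input and 395 and 353 in MBD7 ChIP. The MBD7 ChIP libraries again lay above all others, while WT ChIP was only a little above its input. The log2 ratio was 0.99 ± 0.05 in the MBD7 line (1.98-fold, adjusted p = 6.6e-09) and 0.29 ± 0.08 in WT (adjusted p = 0.0099).

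2R differed from both in that WT ChIP was the highest group, at 568.5 and 509.8 cpm against 446 and 473 in MBD7 ChIP, 280 and 281 in MBD7 input and 313 and 301 in WT input. Its log2 ratio was 0.71 ± 0.08 in the MBD7 line (adjusted p = 1.3e-06) and 0.82 ± 0.08 in WT (adjusted p = 6.0e-06). This value rests on its outermost windows: without the windows of over 10 times the median input it was -0.01 (adjusted p = 0.92) in the MBD7 line. 5L had 292 and 282 cpm in MBD7 ChIP and 231 and 238 in MBD7 input, a log2 ratio of 0.29 ± 0.04 (adjusted p = 1.2e-05).

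Of the lower ends, 1R had 202 and 189 cpm in MBD7 ChIP and 255 and 254 in MBD7 input (log2 ratio -0.38 ± 0.04, adjusted p = 7.1e-07). 3R had 212 and 229 against 278 and 283 (-0.35 ± 0.04, adjusted p = 4.6e-06), and 5R 182 and 170 against 202 and 204 (-0.21 ± 0.04, adjusted p = 1.5e-04). In each of these ends the ChIP and input libraries did not overlap. In WT ChIP against WT input 26.3% of all 100-kb bins were higher and 18.4% lower. Among the ends 2L, 2R and 4L were higher and 3R was lower (-0.17 ± 0.06, adjusted p = 0.029). 3R no longer passed in that comparison without WT input replicate 1, WT input replicate 2, WT ChIP replicate 1, MBD7 input replicate 1 or MBD7 input replicate 2, each of which left 0 lower ends.

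These directions are relative to the rest of the genome. When libraries were scaled by their size alone, the median log2 ratio of all 100-kb bins in the MBD7 line moved by -2.08, 2L was still higher (1.19), and 4L (-1.10), 2R (-1.36) and 5L (-1.79) were lower. The difference between ends does not depend on the scaling. Against the median of the 10 ends in the same library (limma on log2 cpm, adjusted over all bins; 35.2% of bins higher and 26.2% lower), 2L was higher by 3.31 ± 0.16, 4L by 1.03 ± 0.09, 2R by 0.75 ± 0.08 and 5L by 0.33 ± 0.07. 1R (-0.34 ± 0.08) and 3R (-0.31 ± 0.07) were lower than that median. 2R did not pass without the windows of over 10 times the median input (0.05, adjusted p = 0.58). 5R did not pass (-0.16, adjusted p = 0.088), though it did without WT ChIP replicate 1 (-0.16, adjusted p = 0.016), without WT ChIP replicate 2 (-0.16, adjusted p = 0.015) and without MBD7 ChIP replicate 1 (-0.25, adjusted p = 0.046).

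**Figure D1:**
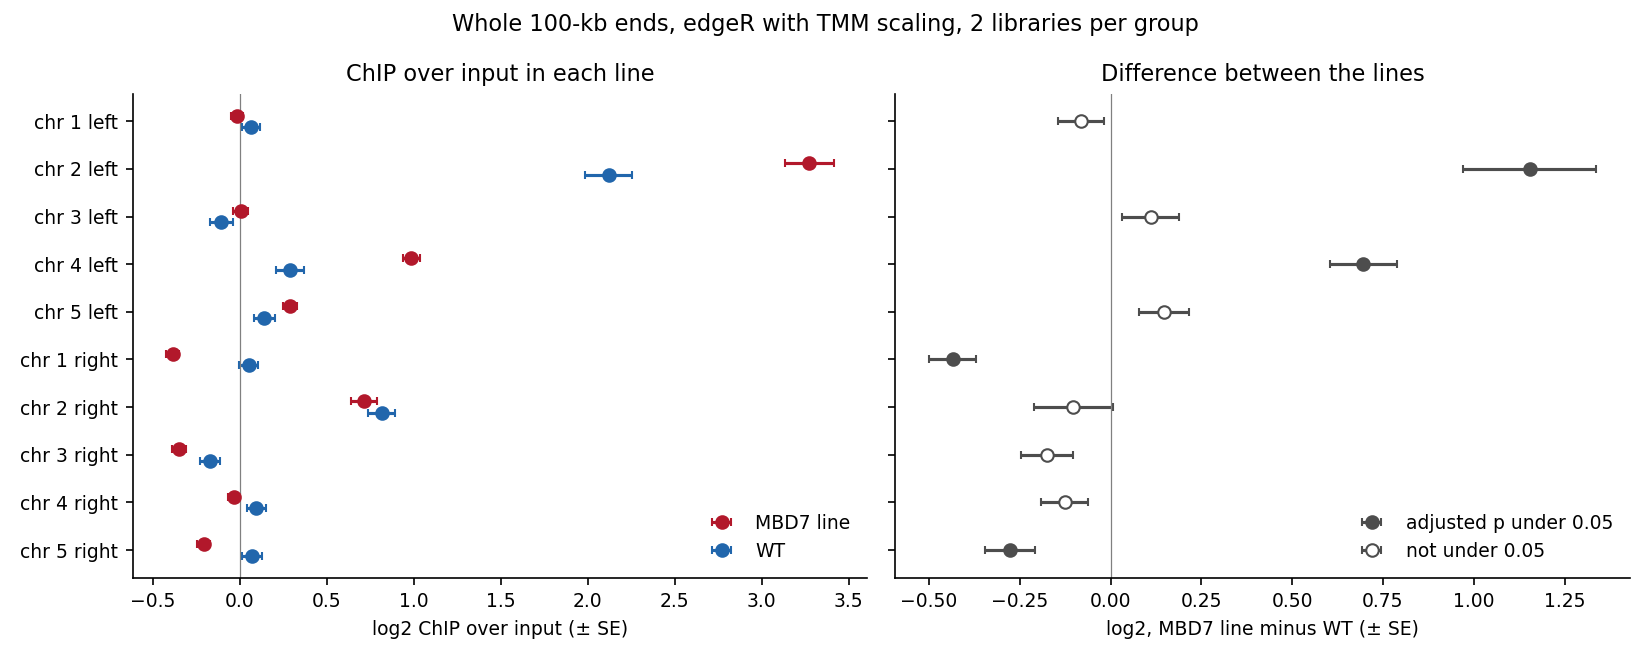
Log2 ratio of ChIP to input over each whole end of 100 kb in the MBD7 line and in WT (left, ± SE), and the difference of the lines (right, ± SE, filled where it passed the test), from edgeR with TMM scaling and 2 libraries per group. 2L stands at 3.27 in the MBD7 line and 2.12 in WT, 4L at 0.99 and 0.29, and the other 8 ends between -0.38 and 0.82; with scaling by library size alone, values of 4L, 2R and 5L in the MBD7 line fall below 0.

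The interaction of genotype and precipitation asks whether ChIP over input is larger in the MBD7 line than in WT, which takes out the background that both share. 2L (1.15 ± 0.18, adjusted p = 3.3e-04) and 4L (0.70 ± 0.09, adjusted p = 1.0e-04) were higher and 1R (-0.44 ± 0.07, adjusted p = 2.3e-04) and 5R (-0.28 ± 0.07, adjusted p = 0.0052) lower on the log2 scale, beside 29.9% of all 100-kb bins higher and 16.3% lower. These values also hold the difference of the inputs. At 2L MBD7 ChIP was at 0.66 against WT ChIP and MBD7 input at -0.49 against WT input. At 4L the same values were 0.53 and -0.17, and the part of the inputs was not tested. 2R, at -0.10 ± 0.11 (adjusted p = 0.46), did not pass, and neither did 5L, at 0.15 ± 0.07 (adjusted p = 0.10). Under scaling by library size alone 4L was at 0.35 (adjusted p = 0.12) and 2L at 0.80, and the latter passed. Against the median of the ends (34% of bins higher, 0.419% lower), 2L (1.32 ± 0.22, adjusted p = 2.8e-04), 4L (0.88 ± 0.12, adjusted p = 9.3e-05) and 5L (0.32 ± 0.10, adjusted p = 0.025) were higher. In that comparison 5R, at -0.11 ± 0.11, did not pass (adjusted p = 0.50). 5L did not pass without WT input replicate 1 (0.34, adjusted p = 0.11), WT input replicate 2 (0.31, adjusted p = 0.16), MBD7 input replicate 1 (0.31, adjusted p = 0.12) or MBD7 input replicate 2 (0.33, adjusted p = 0.11). 1R was at -0.27 (adjusted p = 0.080), and it passed without WT ChIP replicate 1 (-0.32, adjusted p = 0.015) and without MBD7 ChIP replicate 1 (-0.35, adjusted p = 0.020). 3L changed with a single library: against the median end it was at 0.26 (adjusted p = 0.20) and at 0.47 (adjusted p = 1.8e-04) without WT ChIP replicate 2, and over the whole genome at 0.11 and, without that library, at 0.24 (adjusted p = 0.023). Without MBD7 ChIP replicate 2, 3R passed at -0.23 (adjusted p = 0.017) against -0.17 (adjusted p = 0.065) with all libraries.

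Windows of 1000 bp showed where within the ends these differences lay. In MBD7 ChIP against its input 261 of the 1978 end windows were higher (13.2%) and 136 lower (6.88%), beside 18.1% and 6.19% of all 232963 windows tested. The median log2 ratio was -0.14 over the end windows and -0.10 over all windows. 2L held 144 of the 261 higher windows and 4L 52. The other 8 ends held 65 of 1586 (4.10%), with a median of -0.26, close to the 4.02% and -0.25 of the chromosome arms outside the ends. The pericentromeres, the repeat-rich regions around the centromeres, had 55.4% higher windows and a median of 0.98. Without MBD7 ChIP replicate 1 the higher windows of 4L were 33, and the lower windows of all ends were 52. The latter were 68 without MBD7 ChIP replicate 2, 230 without WT input replicate 1 and 231 without WT input replicate 2.

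In the interaction 158 end windows were higher and 9 lower, beside 6.54% and 0.573% of all windows. All 158 were among the 261 windows above. 2L held 129 of them, 4L 15, 5L 10, 4R 3 and 3L 1. Without WT ChIP replicate 2 those of 4L were 7 and those of the other 8 ends 8, against 14 with all libraries, and without MBD7 input replicate 1 they were 9 and 8. The lower windows numbered 1 without MBD7 ChIP replicate 2 and 5 without MBD7 input replicate 1. The 3 windows of 4R raised in the interaction lie in the run at its tip, chr4:18582001-18585056. MBD7 input was itself lower than WT input in 3 windows of that tip. The 3L window raised in the interaction, from 501, was at 1.05 ± 0.34 (adjusted p = 0.049). Neither 4R nor 3L held a window higher in MBD7 ChIP than in WT ChIP. In WT ChIP against WT input 75 end windows were higher and 4 lower, beside 5.13% and 0.456% of all windows, and 59 of the 75 lay in 2L. Without WT ChIP replicate 1 the higher windows were 37 and the lower ones 2, and without WT input replicate 1 the lower ones were 1. Of the 261 windows raised in the MBD7 line 72 were also raised in WT.

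The sequencing depth of the inputs moved with these results. The median input count per window was 4.10 times the median of the genome in 2L and between 0.80 and 1.27 times in the other ends. Of the 261 windows raised in MBD7 ChIP 104 had an input of at most 1.5 times the genome median, and of the 158 raised in the interaction 25 had one, against 1583 of all 1978 tested end windows. Outside 2L the 29 windows raised in the interaction had a median input of 1.72 times that of the genome, against 0.995 for all end windows there. Sequences that occur in more copies in the plants than in the reference, or reads shared by similar copies, raise an input in this way, and the part of input depth in the enrichment was not tested.

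2L was divided into 4 stretches by input depth and by the end of its raised run, with borders set after the data were seen. Over its first 10 kb, which holds rRNA genes, the median input was 37.6 times that of the genome, and all 19 tested windows were higher in MBD7 ChIP than in input, in WT ChIP than in input and in the interaction. The medians of the log2 ratios there were 3.30 in the MBD7 line and 2.30 in WT, with 1.08 for their difference. Over the 116 windows that start between 10001 and 67501 the median input fell to 4.93 times that of the genome. All 116 were higher in MBD7 ChIP and 106 in the interaction, but only 40 in WT ChIP. The medians there were 2.71 in the MBD7 line, 0.65 in WT and 1.86 for the difference, so the value of WT dropped further from the first stretch than that of the MBD7 line.

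The input dropped sharply, from 312.5 counts per library in the window that starts at 67501 to 58.25 in the next. Past this step 8 windows were still higher in MBD7 ChIP, with inputs of 17 to 68.5 counts and a median equal to that of the genome. This stretch was set to stop where the raised run stops, so that all 8 were raised follows from its border. The median log2 ratio of the 8 was 1.83, 4 of them were higher in the interaction (median 1.80), and 0 were higher in WT ChIP (median 0.10). Over the last 55 windows, from 72001, 1 was higher in MBD7 ChIP and 0 in the interaction, and the medians were 0.14 and 0.30. The raised run of 2L thus spanned 143 windows, chr2:501-72500 of TAIR10.

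In bins of 10 kb from the end, the log2 ratio in the MBD7 line along 2L was 3.69, 3.53, 2.83, 2.85, 2.75, 1.55, 2.66, 0.62, 0.11 and 0.03. In WT it was 2.52, 2.11, 0.89, 0.55, 0.78, 0.40, 0.81, -0.05, -0.44 and 0.09. The difference of the lines was largest at 30 to 40 kb, at 2.30 ± 0.21 (adjusted p = 5.8e-08). That bin had 68.0 and 70.6 cpm in WT input, 108 and 93.9 in WT ChIP, 61.1 and 66.1 in MBD7 input and 489 and 429 in MBD7 ChIP. MBD7 ChIP there was far above all other libraries, which lay close together. The bin of 50 to 60 kb formed a dip, with 336 and 291 cpm in MBD7 ChIP, 109.5 and 105 in MBD7 input, 153 and 161 in WT ChIP and 118 and 120 in WT input. The median input of its windows was 5.64 times that of the genome, against 3.35 times at 30 to 40 kb.

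**Figure D2:**
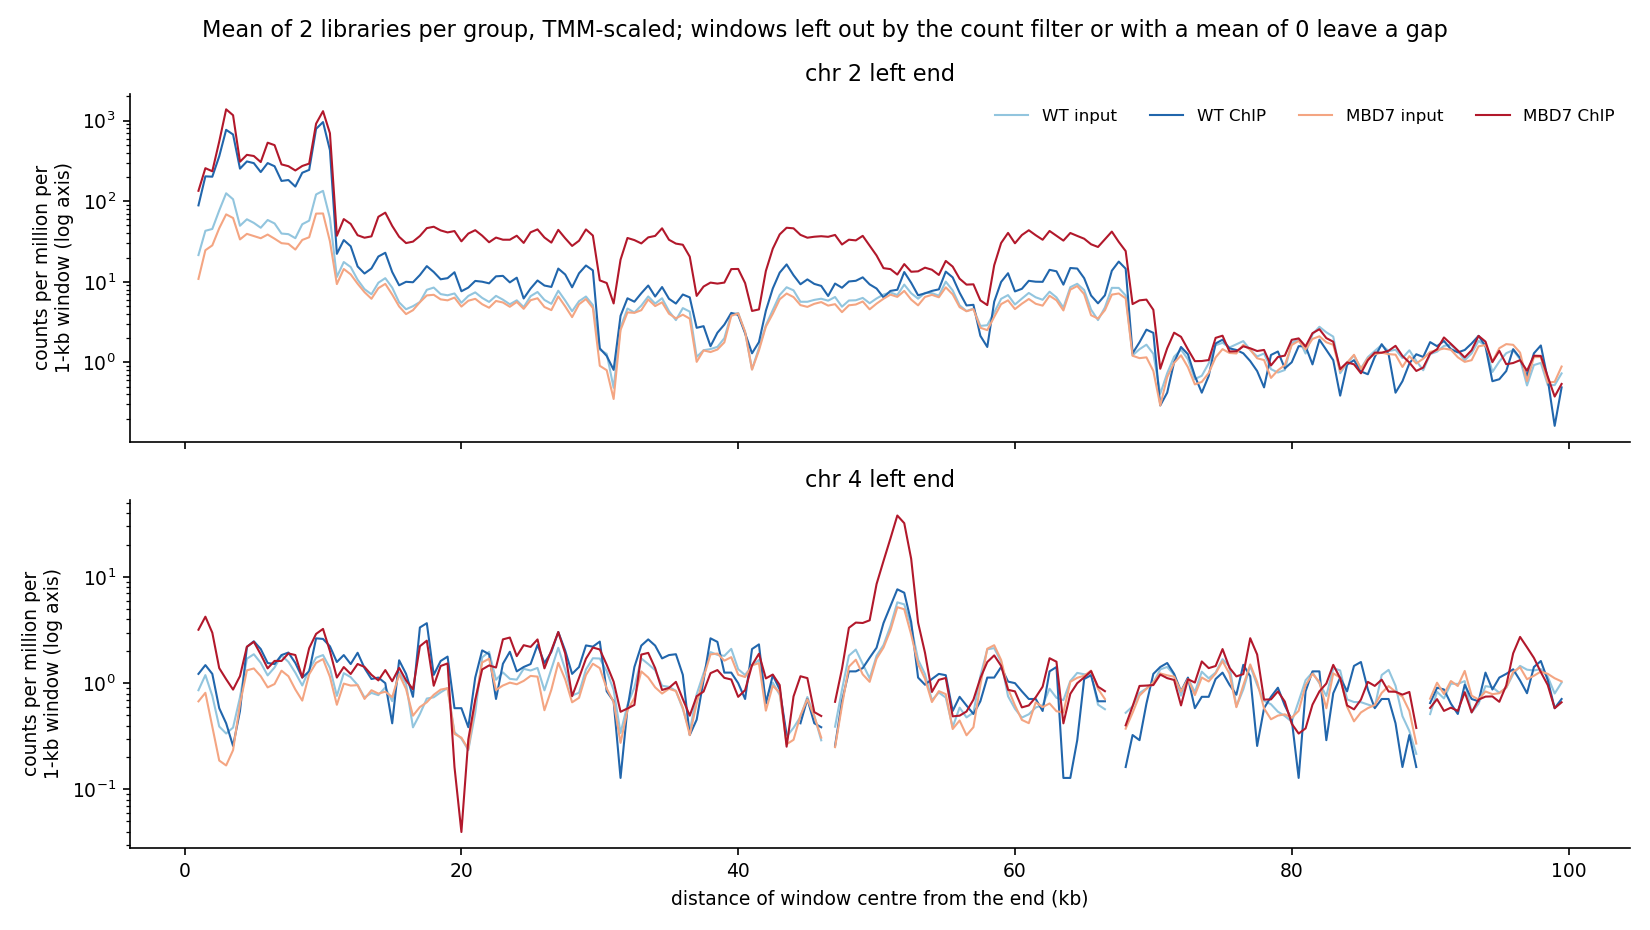
Mean cpm in each window of 1000 bp (log axis) against the distance of its centre from the end in 2L (top) and 4L (bottom), with 1 line per group of 2 libraries. In 2L all groups step down at about 68 kb while MBD7 ChIP stays above the others to the end of its raised run, and in 4L MBD7 ChIP rises over the other groups at 47 to 54 kb and in the outermost 5.5 kb.

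The genes of 2L followed the same stretches. Its 2 annotated rRNA genes lie in the first stretch. AT2G01010 had 575 and 616 cpm in WT input, 3911 and 3282 in WT ChIP, 378 and 387 in MBD7 input and 5465 and 4552 in MBD7 ChIP. Both ChIP groups were well above both inputs, and the log2 ratio was 3.71 ± 0.17 in the MBD7 line and 2.59 ± 0.16 in WT, with a difference of 1.12 ± 0.21 (adjusted p = 0.0016). MBD7 ChIP was above WT ChIP by 0.48 ± 0.15 (adjusted p = 0.045). MBD7 input was at -0.64 ± 0.15 against WT input (adjusted p = 0.32), and its part in the difference was not tested. AT2G01020, the other rRNA gene, had log2 ratios of 3.59 and 2.46. MIR5642b, a microRNA gene, had the highest ratio of all genes of the ends, 4.20 ± 0.17, with 2.68 ± 0.16 in WT. Its MBD7 ChIP was above WT ChIP by 0.69 ± 0.15 (adjusted p = 0.0046). MBD7 input of MIR5642b was at -0.83 ± 0.15 against WT input (adjusted p = 0.096), and the part of the inputs was not tested. Counts over such genes are uncertain, since reads of similar copies elsewhere in the genome may be split among them or left out.

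Inward of these lie most of the 9 pseudogenes of 2L, all of which were higher in MBD7 ChIP. AT2G01029 had 133 and 134 cpm in WT input, 272 and 211 in WT ChIP, 112 and 124 in MBD7 input and 976 and 859 in MBD7 ChIP. Its MBD7 ChIP libraries were several times the level of every other library, with a log2 ratio of 2.96 ± 0.16 in the MBD7 line, 0.86 ± 0.16 in WT and a difference of 2.10 ± 0.22 (adjusted p = 3.3e-06). Within it, the window from 30001 had raw counts of 60 and 65 in WT input, 3 and 5 in WT ChIP, 35 and 37 in MBD7 input and 117 and 115 in MBD7 ChIP. WT ChIP was not above its input there (-0.13 ± 0.53), and the difference of the lines, 3.77 ± 0.45 (adjusted p = 4.3e-08), was the highest in 2L among windows with a mean of at least 10 counts. The protein-coding genes AT2G01035 and AT2G01045 lie in the dip, with log2 ratios of 1.40 ± 0.13 and 1.20 ± 0.13 in the MBD7 line and differences of 1.12 ± 0.20 (adjusted p = 0.0010) and 0.96 ± 0.20 (adjusted p = 0.0038).

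4L held no window of over 10 times the median input, and its median input was 0.80 times that of the genome. Its enrichment lay in 14 separate runs of raised windows with 33000 bp in all, 4 of them with a window raised in the interaction. In chr4:43501-45000 and chr4:76501-78000 this was 1 window each. Their raw WT ChIP counts were 0 and 0 (difference of the lines 7.70 ± 2.49, adjusted p = 0.048) and 2 and 0 (2.62 ± 0.80, adjusted p = 0.034), at or near the floor. Of its 52 raised windows 43 had an input of at most 1.5 times the genome median, as did 8 of the 15 raised in the interaction and 179 of all 194 tested windows of 4L. The longest run, chr4:47001-54000 with 13 windows, covers EDA34, a gene named from a screen for defects of the embryo sac, and part of AT4G00130. EDA34 had 33.1 and 34.0 cpm in WT input, 49.6 and 40.8 in WT ChIP, 29.6 and 29.1 in MBD7 input and 200.7 and 171.2 in MBD7 ChIP. The MBD7 ChIP libraries did not overlap any other group, the log2 ratio was 2.66 ± 0.14 (adjusted p = 6.6e-11), and the difference of the lines was 2.22 ± 0.21 (adjusted p = 1.5e-06), the largest of all 373 genes of the ends. Leaving out any 1 of the 8 libraries kept this call. In the run 10 windows were higher in the interaction and 0 in WT ChIP, and the median input was 1.52 times that of the genome, with a highest value of 4.82 times.

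The peak of that run, chr4:50501-51500, had raw counts of 180 and 160 in WT input, 21 and 16 in WT ChIP, 175 and 120 in MBD7 input and 287 and 265 in MBD7 ChIP. In cpm over the TMM-scaled library size these were 3.33 and 3.54, 5.39 and 5.21, 3.15 and 3.13, and 24.9 and 21.1. On that scale only MBD7 ChIP stood apart. The log2 ratio was 2.87 ± 0.17, and the difference of the lines 2.24 ± 0.31.

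The outermost run of 4L, chr4:501-5500, overlaps AT4G00005, the end-most protein-coding gene, and the start of BRCA2(IV), whose product acts in homologous recombination. Its 9 windows had a median input of 0.60 times that of the genome. The peak window, from 1501, had raw counts of 38 and 37 in WT input, 7 and 2 in WT ChIP, 23 and 14 in MBD7 input and 35 and 37 in MBD7 ChIP. Its log2 ratio was 2.91 ± 0.28 and the difference of the lines 2.14 ± 0.52 (adjusted p = 0.0045). MBD7 ChIP against WT ChIP, at 1.21 ± 0.45, did not pass there (adjusted p = 0.11). MBD7 input was at -0.93 ± 0.27 against WT input (adjusted p = 0.28), and its part in the difference was not tested. AT4G00005 had 4.66 and 4.30 cpm in WT input, 10.2 and 3.45 in WT ChIP, 2.75 and 3.11 in MBD7 input and 16.8 and 17.3 in MBD7 ChIP. Its replicates of WT ChIP lay far apart, yet both were below MBD7 ChIP, and the difference of the lines was 1.86 ± 0.40 (adjusted p = 0.0040). MBD7 ChIP of AT4G00005 was above WT ChIP by 1.24 ± 0.33 (adjusted p = 0.019). Its MBD7 input was at -0.62 ± 0.22 against WT input (adjusted p = 0.87), and the part of the inputs was not tested. BRCA2(IV) had 59.0 and 45.9 cpm in MBD7 ChIP against 29.4 and 24.6 in its input (0.95 ± 0.16, adjusted p = 8.8e-05) and a difference of the lines of 0.45 ± 0.24 (adjusted p = 0.28). The run over MEE44, chr4:22501-28000, had 10 raised windows but 0 in the interaction, and MEE44, a gene named from a screen for arrested embryos, was higher in both MBD7 ChIP (0.85 ± 0.13) and WT ChIP (0.57 ± 0.15).

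5L held 3 runs. The longest, chr5:64501-71500 with 13 windows, covers the pseudogene AT5G01185, and its median input was 2.30 times that of the genome. AT5G01185 had 44.3 and 49.9 cpm in WT input, 64.2 and 58.6 in WT ChIP, 45.5 and 48.4 in MBD7 input and 157.5 and 131.4 in MBD7 ChIP. MBD7 ChIP was above all other libraries, with a log2 ratio of 1.62 ± 0.14 and a difference of the lines of 1.23 ± 0.21 (adjusted p = 5.6e-04). The second run, chr5:28001-30500, lies over AT5G01080 and the RNA gene AT5G00325, with log2 ratios of 1.21 ± 0.18 and 0.93 ± 0.18 and differences of 1.05 ± 0.34 (adjusted p = 0.054) and 1.20 ± 0.37 (adjusted p = 0.040). Its median input was 1.74 times that of the genome. The third run, chr5:1-1500, is the end itself. Its first window had raw counts of 44 and 34 in WT input, 10 and 14 in WT ChIP, 29 and 32 in MBD7 input and 15 and 24 in MBD7 ChIP. In cpm over the TMM-scaled library size both ChIP groups lay above both inputs. The log2 ratio was 1.31 ± 0.32 in the MBD7 line (adjusted p = 9.7e-04) and 2.12 ± 0.40 in WT (adjusted p = 1.1e-04), and the difference of the lines, -0.82 ± 0.47, did not pass (adjusted p = 0.38).

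**Figure D3:**
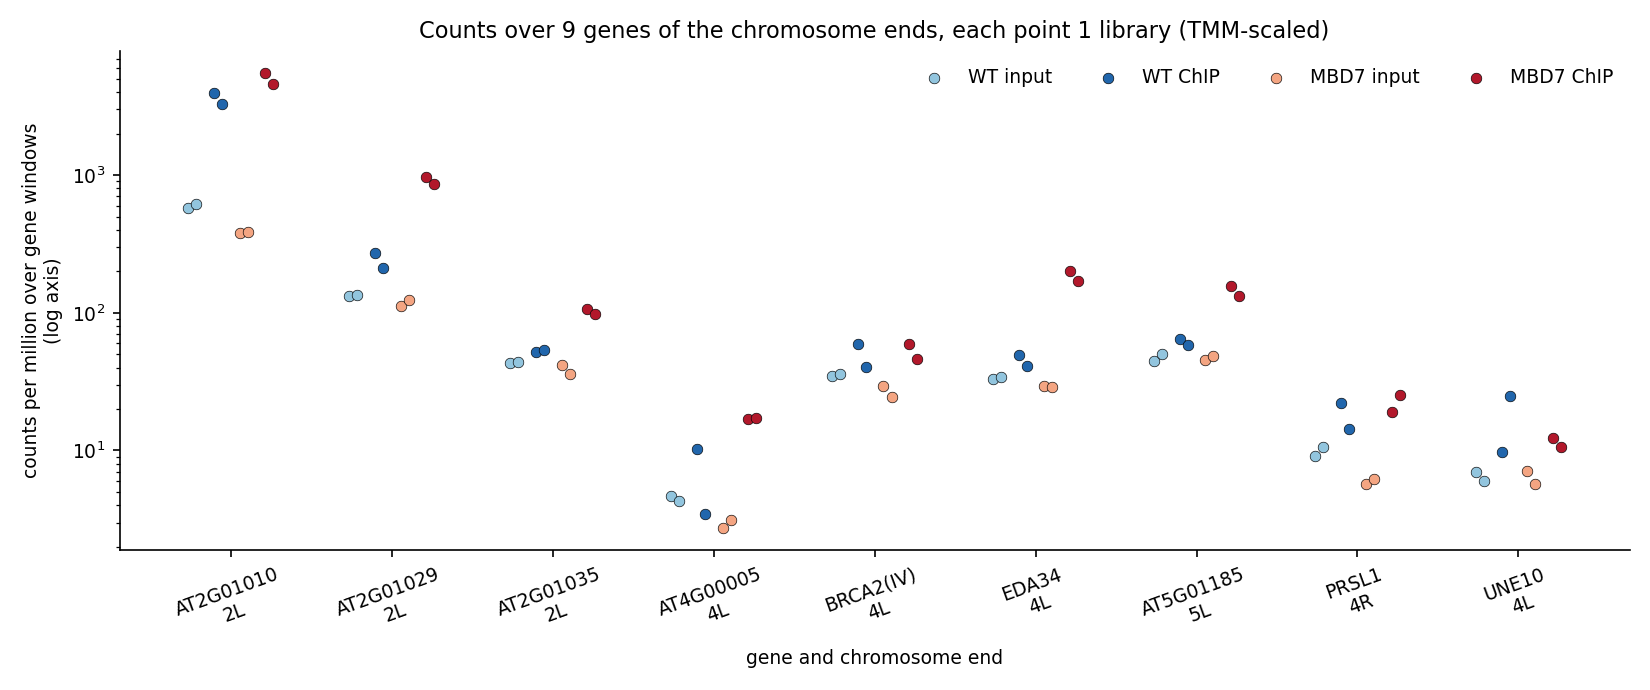
Cpm over the windows of 9 genes of the ends (log axis), with 1 point per library and the end below each gene name. MBD7 ChIP lies above all other groups at EDA34, AT2G01029, AT2G01035 and AT5G01185, while at AT2G01010, an rRNA gene, WT ChIP is also far above both inputs and at UNE10 1 WT ChIP library is the highest point.

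The outermost 10 kb of each end was compared next. In MBD7 ChIP against its input 25 of the 100 bins of 10 kb in the ends were higher and 27 lower, beside 28.6% and 24.9% of all such bins. Among the 10 outermost bins 6 were higher (2L, 2R, 3L, 4L, 4R and 5R) and 1 was lower (3R). The median log2 ratio of the outermost bins was 0.57, against -0.07 for all bins. Part of these bins were also raised in WT ChIP, where no tagged protein is present. There 14 bins of the ends were higher and 1 lower, beside 15.3% and 3.33% of all bins, and of the 10 outermost bins 2L, 2R, 3L, 5L and 5R were higher, with a median of 0.49 against -0.02 for all bins. The 14 higher bins were 8 without WT ChIP replicate 1 and 9 without WT input replicate 2, and the lower bins were 2 without WT input replicate 1 or without WT ChIP replicate 2. In the interaction 12 bins of the ends were higher and 6 lower, beside 18.7% and 2.92% of all bins, and of the outermost bins 2L and 4L were higher and 5L was lower. The inputs of the MBD7 line had a median log2 difference from the WT inputs of -0.23 over the outermost bins, against 0.01 for all bins, and no bin of the ends passed that test (0.0084% of all bins higher and 0.0336% lower). The part of this difference in the ratios to input was not tested.

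The outermost bin of 2R had 66.1 and 58.9 cpm in WT input, 347 and 292 in WT ChIP, 48.0 and 44.3 in MBD7 input and 264 and 267 in MBD7 ChIP. Both ChIP groups were far above the inputs, with log2 ratios of 2.52 ± 0.15 in the MBD7 line and 2.36 ± 0.15 in WT and a difference of 0.17 ± 0.20 (adjusted p = 0.63). Its last window, chr2:19698001-19698289, had raw counts of 926 and 662 in WT input, 457 and 357 in WT ChIP, 682 and 399 in MBD7 input and 1152 and 1272 in MBD7 ChIP, and is 1 of 2 windows of 2R with over 10 times the median input. At 3L the bin had 38.1 and 37.9 cpm in MBD7 ChIP, 20.8 and 22.5 in its input, 30.9 and 46.0 in WT ChIP and 27.1 and 25.0 in WT input. The ChIP groups overlapped there, and the ratios were 0.82 ± 0.10 in the MBD7 line (adjusted p = 3.3e-07) and 0.52 ± 0.16 in WT (adjusted p = 0.023).

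4L and 4R differed from these. At 4L the bin had 20.6 and 22.0 cpm in WT input, 34.6 and 22.3 in WT ChIP, 16.5 and 15.1 in MBD7 input and 39.5 and 34.3 in MBD7 ChIP, where 1 WT ChIP library reached the lower MBD7 ChIP library. The ratio was 1.21 ± 0.11 in the MBD7 line (adjusted p = 1.2e-09), 0.46 ± 0.18 in WT (adjusted p = 0.090) and their difference 0.75 ± 0.20 (adjusted p = 0.0073). At 4R the ratio was 0.76 ± 0.11 in the MBD7 line (adjusted p = 1.5e-06), and the difference of 0.53 ± 0.20 did not pass (adjusted p = 0.057). 5L showed the opposite order. Its bin had 22.0 and 21.5 cpm in WT input, 36.1 and 33.1 in WT ChIP, 21.2 and 24.7 in MBD7 input and 21.7 and 24.3 in MBD7 ChIP, so that WT ChIP alone stood apart. WT ChIP was above its input by 0.68 ± 0.16 (adjusted p = 0.0039), MBD7 ChIP by 0.02 ± 0.11 (adjusted p = 0.87), and the difference was -0.65 ± 0.20 (adjusted p = 0.018).

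**Figure D4:**
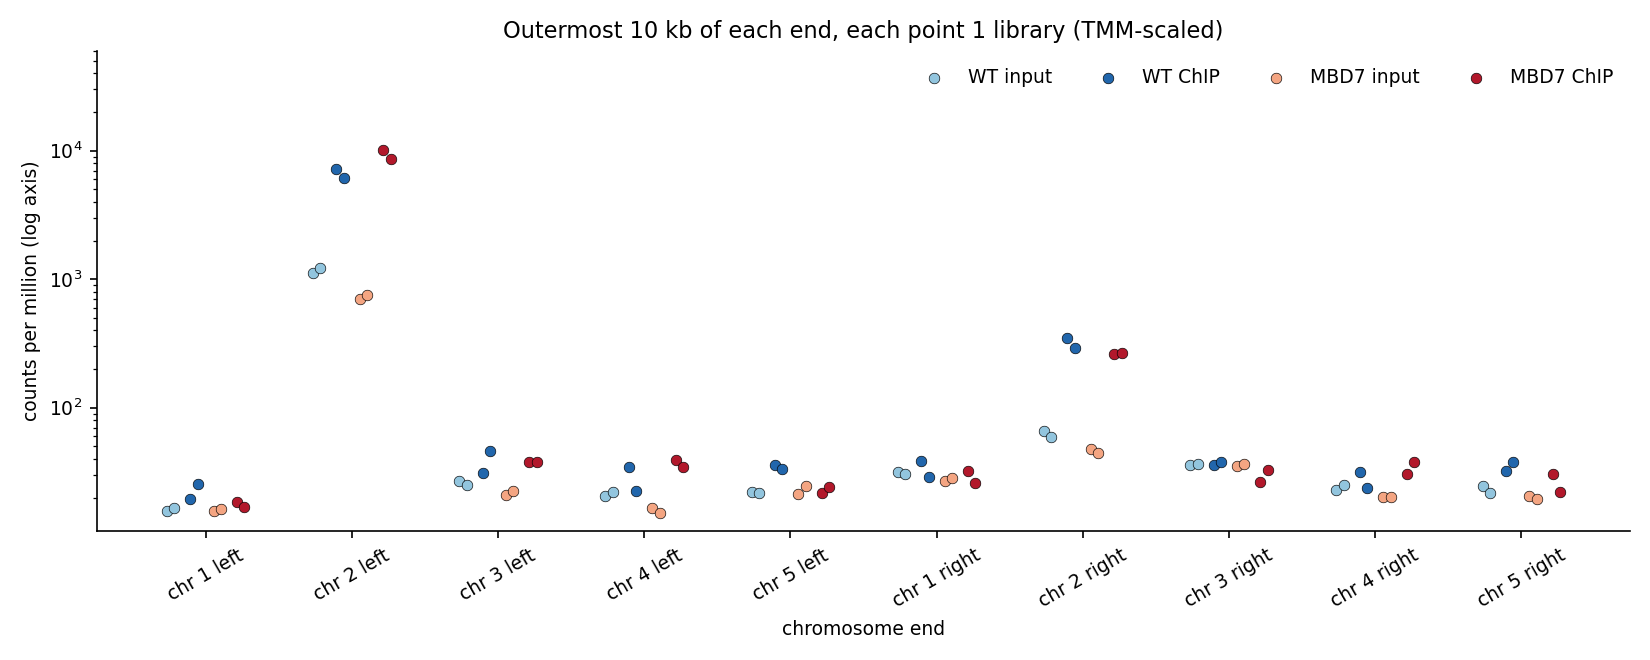
Cpm in the outermost 10 kb of each end (log axis), with 1 point per library. Both ChIP groups lie far above the inputs at 2L and 2R, MBD7 ChIP is above its own input at 3L, 4L and 4R, and at 5L only WT ChIP is above its input; these ratios are relative to TMM scaling.

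At the very tips, the last windows of 1R, 2L, 4L and 5R were left out by the filter on low counts. The first window of chromosome 2 had raw counts of 2 and 5 in WT input, 0 and 0 in WT ChIP, 1 and 0 in MBD7 input and 3 and 4 in MBD7 ChIP, while the sequence just inward of it held the deepest windows of the end. The last window of 4R, chr4:18585001-18585056, is only a fragment of a window and had raw counts of 46 and 55 in WT input, 1 and 1 in WT ChIP, 9 and 9 in MBD7 input and 8 and 38 in MBD7 ChIP. The ChIP libraries of the MBD7 line disagreed there, and the log2 ratio of MBD7 input to WT input was -2.38 (adjusted p = 6.2e-04). From summed counts, MBD7 ChIP was 6.65 times WT ChIP at this window (95% counting interval 1.74 to 56.5), and edgeR's test over the libraries did not pass (log2 ratio 2.71 ± 0.90, adjusted p = 0.059). PRSL1, the end-most gene of 4R, had 9.11 and 10.7 cpm in WT input, 22.1 and 14.4 in WT ChIP, 5.70 and 6.23 in MBD7 input and 18.9 and 25.5 in MBD7 ChIP. Both ChIP groups were above both inputs and overlapped each other. On the log2 scale MBD7 ChIP of PRSL1 was at 0.26 ± 0.25 against WT ChIP (adjusted p = 0.58). MBD7 input was at -0.73 ± 0.17 against WT input (adjusted p = 0.32). The log2 ratio of ChIP to input was 1.91 ± 0.18 in the MBD7 line, and its difference between the lines 0.99 ± 0.30 (adjusted p = 0.038). The part of the inputs in this difference was not tested. That difference did not pass without WT input replicate 1 (1.10), WT input replicate 2 (0.87), WT ChIP replicate 2 (0.81), MBD7 input replicate 1 (0.92), MBD7 input replicate 2 (1.05) or MBD7 ChIP replicate 2 (0.83), with adjusted p of 0.077 to 0.18.

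**Figure D5:**
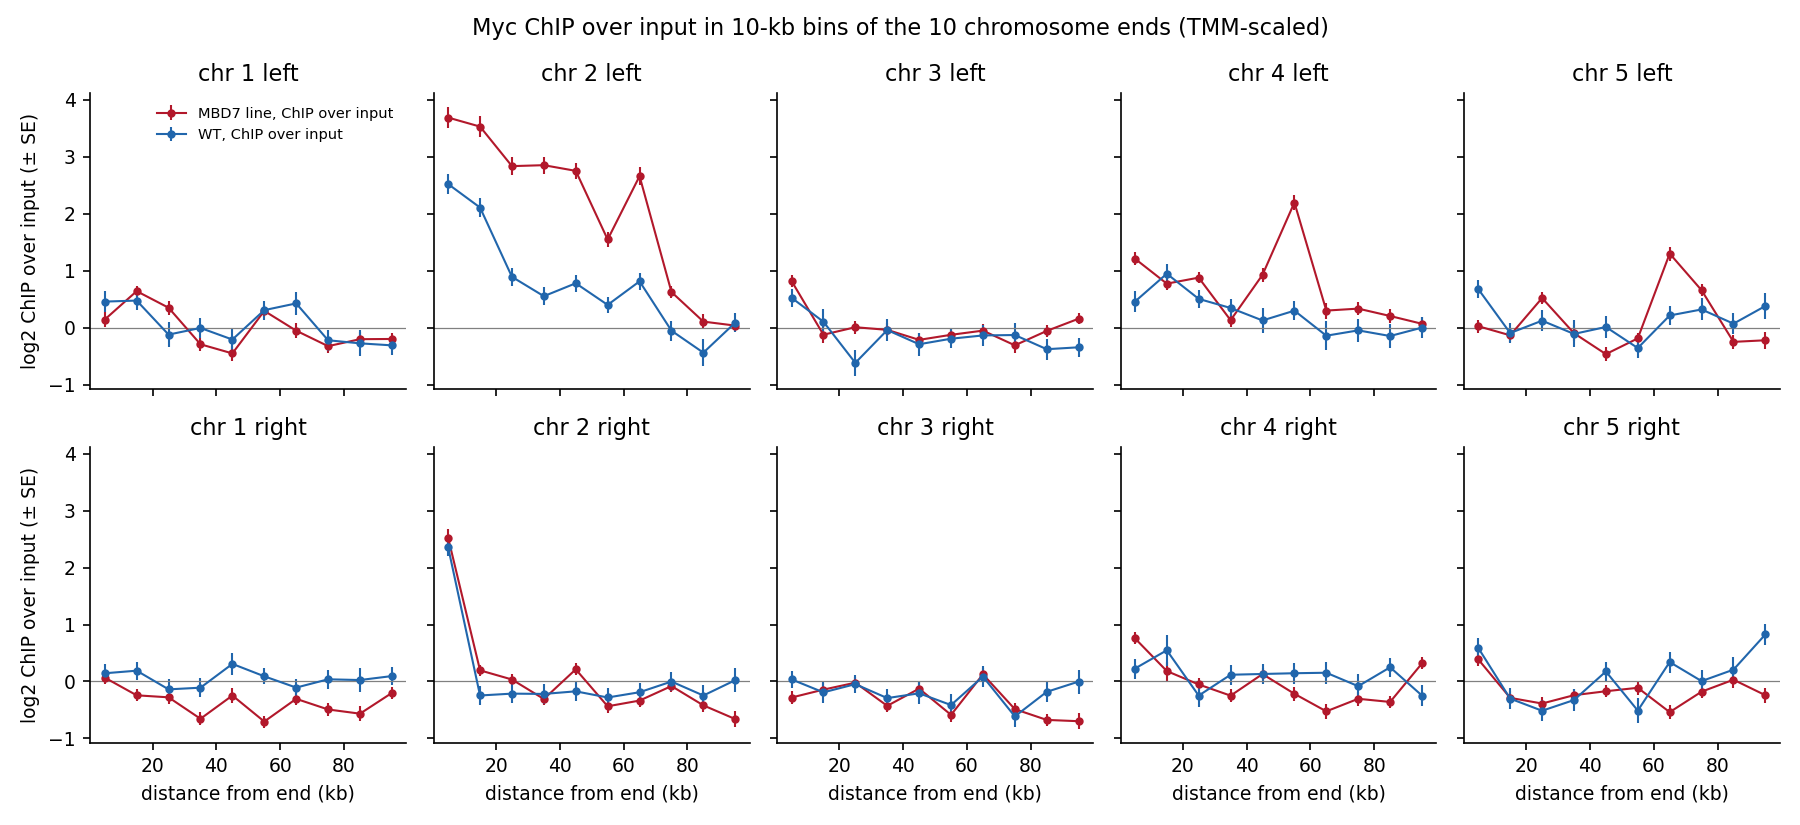
Log2 ratio of ChIP to input (± SE, TMM-scaled) in bins of 10 kb against distance from the end for all 10 ends, with the MBD7 line and WT as separate lines. 2L is raised to 70 kb in the MBD7 line and mainly to 20 kb in WT, 4L has a peak of 2.20 at 50 to 60 kb and 5L 1 of 1.30 at 60 to 70 kb, and the outermost bin of 2R stands at 2.52; under scaling by library size alone all values move down, by a median of 2.12 over all bins in the MBD7 line.

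Of the 10 end-most protein-coding genes 5 were higher in MBD7 ChIP than in its input, beside 16.8% of all genes higher and 13.4% lower. They were AT2G01008 (log2 ratio 4.02), AT4G00005 (2.55), PRSL1 (1.91), AT3G01015 (0.74) and AT2G48160 (0.47). AT3G01015 did not pass without MBD7 input replicate 1 (0.62) or MBD7 ChIP replicate 1 (0.60), nor AT2G48160 without MBD7 input replicate 1 (0.39). Both were lower, at -0.69 and -0.95, once libraries were scaled by size alone. The end-most gene of 5L, AT5G01010, had 19.9 and 19.5 cpm in WT input, 39.0 and 37.4 in WT ChIP, 18.1 and 20.1 in MBD7 input and 22.8 and 21.6 in MBD7 ChIP, again with only WT ChIP apart. WT ChIP was above its input by 0.96 ± 0.16 (adjusted p = 3.8e-04).

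The windows were also split by the class of gene they overlap. In 2L all 89 pseudogene windows were raised in MBD7 ChIP (median log2 ratio 2.78) and in the interaction (1.97), and 33 of them in WT ChIP. Of the 72 windows of 2L over protein-coding genes 24 were raised, with a median of 0.39. Class and position cannot be told apart in 2L. All 143 windows of its run chr2:501-72500 were raised whatever their class, against 1 of the last 55 windows, from 72001. In the 8 ends without a nucleolus organizer 14 of 16 pseudogene windows were raised (median 1.43) and 6 of them in the interaction. They come from 2 stretches of overlapping windows, with 11 of 11 raised in 5L over AT5G01185 and 3 of 5 in 1R, the 3 at its tip over AT1G81001 and AT1G81020, and are not independent loci. Of the windows over protein-coding genes there 29 of 1369 were raised (median -0.29). The same classes gave 43.7% and 2.29% raised windows in the chromosome arms and 86.7% and 17.8% in the pericentromeres. 4L stood apart from this: 44 of its 157 protein-coding windows were raised and 0 of its 2 pseudogene windows.

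By gene, MBD7 ChIP exceeded its input at 47 of the 373 genes of the ends and lay below it at 52, beside 16.8% and 13.4% of all genes. The median log2 ratio was -0.15, the same as over all genes. 2L held 23 of the 47 and 4L 14. Of 15 pseudogenes 12 were higher and 0 lower (median 2.65), of 71 RNA genes 12 were higher and 5 lower, and of 287 protein-coding genes 23 were higher and 47 lower. In the interaction 27 genes were higher and 11 lower, beside 8.86% and 2.34% of all genes, and in WT ChIP 31 were higher and 3 lower, beside 7.62% and 1.63%. The lower genes in MBD7 ChIP against input were 26 without WT input replicate 1 or 2, 15 without MBD7 input replicate 1 or 2, 18 without MBD7 ChIP replicate 1 and 23 without MBD7 ChIP replicate 2. The lower genes in the interaction were 3 without WT input replicate 1 or 2 or MBD7 input replicate 2, 4 without MBD7 input replicate 1, 6 without MBD7 ChIP replicate 2 and 17 without WT ChIP replicate 2. In WT ChIP the higher genes were 20 without WT input replicate 2, and the lower ones 0 without WT input replicate 1 or 2 and 7 without WT ChIP replicate 1.

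Among 14 genes of transcription factors and chromatin proteins in the ends 2 were higher and 3 lower, with a median of -0.20, beside the 16.8% higher and 13.4% lower among all genes, which also hold for the lists that follow. UNE10, a bHLH transcription factor of 4L, had 6.93 and 5.99 cpm in WT input, 9.74 and 24.7 in WT ChIP, 7.09 and 5.70 in MBD7 input and 12.2 and 10.5 in MBD7 ChIP. Its highest library was WT ChIP replicate 2, and its ratio of 0.82 ± 0.24 in the MBD7 line had no counterpart in the interaction (-0.53 ± 0.38, adjusted p = 0.45). YAB3, a YABBY transcription factor of leaf polarity, was higher by 0.42. GIF2, a coactivator of growth-regulating factors (-0.74), TRB2, a telomere repeat binding protein (-0.67), and LHY, a MYB factor of the circadian clock (-0.48), were lower. Of 6 genes of RNA and DNA metabolism BRCA2(IV) was higher, while DCL1, the Dicer of microRNAs, stood at 0.37 and missed the threshold (adjusted p = 0.067). Of 17 genes of transport and metabolism 2 were lower, the plastid pyruvate dehydrogenase subunit gene PDH-E1 ALPHA (-0.58) and MTO1, which encodes cystathionine gamma-synthase (-0.50). The falls are relative to the genome, since with library size as the only scaling 342 of the 373 genes were lower.

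Of the lower genes named in each end, CCR2, a cinnamoyl-CoA reductase gene of 1R, had 4.99 and 5.46 cpm in MBD7 ChIP against 10.9 and 10.2 in its input and 10.4 and 11.6 in WT input, with 7.53 and 17.8 in WT ChIP. Its log2 ratio was -1.01 ± 0.24 (adjusted p = 0.0028). SETH6 of 2R (-0.93 ± 0.17) and AT3G63450 of 3R (-0.97 ± 0.17) were also lower, with adjusted p of 2.9e-04 and 2.4e-04. The lowest gene in the interaction was AT4G09945, an RNA gene of 4R, at -2.45 ± 0.53 (adjusted p = 0.0041). Its raw counts were 68 and 57 in WT input and 11 and 12 in WT ChIP. In the MBD7 line they were 92 and 57 in input and 9 and 10 in ChIP. WT ChIP was above its input by 1.52 ± 0.39 (adjusted p = 0.017). Without each library in turn the interaction value was -2.63 to -2.14. In the interaction AT1G80810 of 1R had a value of -0.86 ± 0.21 (adjusted p = 0.012), and it did not pass without WT input replicate 1 (-0.87), WT input replicate 2 (-0.85), WT ChIP replicate 1 (-0.74), MBD7 input replicate 2 (-0.79) or MBD7 ChIP replicate 2 (-0.63). AT5G67430 of 5R, at -1.48 ± 0.31 (adjusted p = 0.0034), did not pass without WT ChIP replicate 1 (-0.99), and in MBD7 ChIP against input it was at -0.78, which did not pass without MBD7 ChIP replicate 1 (-0.59).

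MBD7 ChIP was also set directly against WT ChIP. Among the ends 2L (0.66), 4L (0.53) and 5L (0.17) were higher and 1R (-0.46), 5R (-0.25), 2R (-0.23) and 3R (-0.18) lower on the log2 scale, beside 30.7% of 100-kb bins higher and 14.7% lower. The 4 lower ends were 2 without WT ChIP replicate 1 or MBD7 ChIP replicate 1. In windows 144 were higher and 9 lower, beside 5.78% and 0.491% of all windows, and 117 of the 144 lay in 2L, 15 in 5L and 11 in 4L. The lower windows were 4 without MBD7 ChIP replicate 2. This comparison shares its ChIP libraries with the interaction.

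The inputs of the lines were compared to see whether copies of the ends differ. None of the 10 ends passed in 100-kb bins, of which 0.0838% were higher and 0% lower in the genome, and 2L had the largest value, -0.49 ± 0.13 (adjusted p = 0.18). With the same test 0 end windows were higher and 3 were lower in MBD7 input, all at the tip of 4R, beside 0.0107% and 0.00901% of all windows. The 3 lower windows were 0 without WT input replicate 2 or MBD7 input replicate 1, 1 without MBD7 input replicate 2, 10 without WT ChIP replicate 1 or 2 and 9 without MBD7 ChIP replicate 1 or 2. 0 genes of the ends were called (0.00528% of all genes in each direction), while 6 were lower without WT ChIP replicate 1 or 2 and 2 without MBD7 ChIP replicate 2. A fit of the inputs alone called 4 ends, 27 windows and 17 genes lower in MBD7 input, and DESeq2's Wald test 1 end, 12 windows and 10 genes. The shares of the whole genome that these alternative fits called are not given here. Whether the ends stand out in them can therefore not be told.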

How the data were processed

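The authors deposited raw read counts for windows of 1000 bp placed every 500 bp, 1 column per library. Bowtie2, SAMtools, featureCounts and TAIR10 are named in the submitters' processing notes. How reads with several matches or duplicates were treated is not given in the sources used here. Counts were summed over windows that do not overlap for bins of 100 kb and 10 kb, and over all overlapping windows for genes, so neighbouring genes share counts. Gene names and classes come from RefSeq's table for TAIR10.1, and none of its coordinates are printed. edgeR 4.0.16 (R 4.3.3) was run on each table with its filter on low counts, TMM scaling, 8 libraries in 1 quasi-likelihood fit and Benjamini-Hochberg adjustment at 0.05. limma 3.58.1 was run on log2 cpm (prior count 2) less the median of the 10 ends. DESeq2 1.42.0 was an alternative. The scripts were tested on simulated data. In each end the highest and lowest window and gene were named among those that passed with a mean of at least 10 counts and groups that did not overlap, with the outermost windows and genes and a list of known regulators and enzymes. Genes in printed runs of windows were added after their values were seen. The members and lists were chosen with earlier results of these data known. Intervals cover counting error only, and reads are not independent molecules. Figures were drawn with matplotlib 3.10.9.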

Additional observations from a re-analysis of the deposited data

Results flagged for a closer look

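At 4 of the 10 ends the log2 ratio of ChIP to input differed between the lines, by edgeR's quasi-likelihood test of the difference itself with Benjamini-Hochberg adjustment. The ratio of the MBD7 line was above that of WT by 1.154 at the left end of chromosome 2 and by 0.6957 at the left end of chromosome 4. The value was -0.435 at the right end of chromosome 1 and -0.2774 at the right end of chromosome 5, where the ratio of the MBD7 line was the lower one. Against the median of the 10 ends (limma), neither of these right ends passed (adjusted p = 0.080 and 0.50). MBD7 input against WT input stood at -0.49 and -0.17 at the left ends of chromosomes 2 and 4. It was -0.03 and 0.02 at the right ends of chromosomes 1 and 5, and none of these passed. The sample labels name different antibody sources for the ChIP libraries of the lines and the protocol names 1. The parts of the inputs and of antibody source in the differences of the lines were not tested.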

How the results depend on the processing

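With library size as the only scaling, MBD7 ChIP against input gave 110 higher and 1811 lower end windows, 1 and 9 ends, 22 and 342 genes and 7 and 92 bins of 10 kb. The ends then stood at -2.09 (1L), -1.36 (2R), -2.07 (3L), -1.10 (4L), -2.11 (4R) and -1.79 (5L). Windows turned to -0.21 (w1_56001, 1L), -0.58 (w1_30427001, 1R), -0.39 (w3_1, 3L), -1.40 (w3_23414501, 3R), -0.18 (w5_68001, 5L) and -0.11 (w5_26974501, 5R), and AT1G81020 to -0.30, AT2G48160 to -0.95 and AT3G01015 to -0.69. The same scaling gave 14 lower windows against WT ChIP. In the interaction it gave 18 lower windows, 1 higher and 5 lower ends, 43 lower genes and 22 lower bins, with -0.45 at 2R, -0.27 at 3L, -0.52 at 3R, 0.35 at 4L, -0.49 at 4R and -0.20 at 5L. In WT it gave 23 higher and 1685 lower windows, 1 and 9 ends, 11 and 285 genes and 3 and 97 bins, and between inputs 4 higher and 12 lower windows, 1 lower end and 7 lower genes. This scaling moved the median log2 ratio of all windows by -2.06 in the MBD7 line and -1.64 in WT. The shares of the whole genome called under it and under the settings below are not given here, so these counts do not tell whether the ends stand out.

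DESeq2's Wald test gave 26 lower windows and 19 lower genes in MBD7 ChIP against input, 0.046 at 1L, 0.032 at 4R, 3 lower windows in the interaction, 0.19 at 5L there (adjusted p = 0.034), 0 lower windows in WT, and 12 lower windows, 1 lower end and 10 lower genes between inputs. DESeq2's size factors gave 22 lower genes, 0.046 at 1L, 0.031 at 4R, 0.19 at 5L in the interaction, 0 lower ends in WT and 7 lower windows between inputs. Fits of only the libraries compared, which the interaction does not have since it uses all 8, gave 28 lower genes against input, 2 lower ends against WT ChIP, 27 lower windows, 4 lower ends and 17 lower genes between inputs, and 5R at -0.16 against the median end (adjusted p = 0.0059). Without windows of over 10 times the median input 234 windows were lower, and 2R was at -0.0061, 3L at -0.015 and 2R against the median end at 0.054. 3L was at -0.022 with all overlapping windows summed. The first or last 50 kb, with fewer windows, held 53 lower windows against input, 92 higher and 0 lower against WT ChIP, and 2 lower in the interaction and in WT. The causes were not tested.

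Replicate numbers did not pair the libraries (r of replicate differences -0.02 to 0.08). A replicate block gave 7 lower genes in the interaction and 6 lower windows between inputs and changed no other count by over 1.5 times.

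Without each library in turn, MBD7 ChIP against input gave 52 to 231 lower windows, 15 to 46 lower genes, 33 to 53 higher windows in 4L, -0.055 to 0.020 at 1L and -0.018 to 0.027 at 3L. Against WT ChIP there were 4 to 11 lower windows and 2 to 4 lower ends. The interaction gave 1 to 10 lower windows, 3 to 17 lower genes, 7 to 15 higher windows in 4L and 8 to 19 in the other 8 ends, -0.044 to 0.24 at 3L and -0.23 to -0.12 at 3R. WT gave 37 to 83 higher and 1 to 5 lower windows, 0 to 1 lower ends, 20 to 35 higher and 0 to 7 lower genes and 8 to 14 higher and 1 to 2 lower bins. Inputs gave 0 to 10 lower windows and 0 to 6 lower genes. Against the median end the ranges were -0.033 to 0.064 (4R) and -0.25 to -0.071 (5R) over input, and -0.35 to -0.18 (1R), 0.058 to 0.47 (3L), -0.024 to 0.0095 (3R), -0.093 to 0.16 (4R) and 0.26 to 0.39 (5L) in the interaction. WT ChIP, with a median of 3 and 4 counts per window, limits single windows.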
